A study of Rattus norvegicus with 10 samples.

Results

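A set of 5 genes that mark disease-associated phagocytes were followed here through CD11b+ cells of the rat brain after intracerebral hemorrhage (ICH): Apoe (ENSRNOG00000018454), Gpnmb (ENSRNOG00000008816), Cd63 (ENSRNOG00000007650), Spp1 (ENSRNOG00000043451) and Clec7a (ENSRNOG00000054251). They were taken by identifier, 5 of the 32883 genes in the count table. The study's text names Apoe, Gpnmb and Cd63 as genes of disease-associated microglia. It reports them lower with rhCDNF in these cells, by sequencing and by qPCR. Spp1 and Clec7a are known from the same program. The libraries came from 12-week-old male Sprague-Dawley rats with a hemorrhage in the striatum, 5 given saline (ICH + saline) and 5 given recombinant human CDNF (ICH + rhCDNF), a protein with neurotrophic and endoplasmic reticulum functions. CD11b+ cells, which are myeloid cells, were captured with magnetic beads from the dissociated hemorrhagic striatum at day 3 after ICH, and RNA depleted of ribosomal RNA was sequenced. The study induced the hemorrhage with collagenase or autologous blood and gave rhCDNF or saline into a ventricle 1 h later. All animals carried the hemorrhage, and no library of an uninjured brain or of another time point was analysed here. The fraction mixes resident microglia with macrophages that enter from blood. The libraries are named by the index in their column name, with S1 to S5 in the saline group and S6 to S10 in the rhCDNF group. These are not the replicate numbers of the sample labels. Per the study's methods, n is the number of animals.

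In mouse models of neurodegeneration, microglia in contact with debris, plaques or dying cells lower their resting-state genes and turn on a program of lipid handling, lysosomes and phagocytosis. Its best known members include the 5 genes described here. Foamy macrophages in other tissues use many of the same genes, so these transcripts mark a phagocyte state and not one cell type. Apoe encodes a secreted apolipoprotein that carries cholesterol out of cells that have taken up lipid. Gpnmb encodes a transmembrane glycoprotein of phagocytes with loaded lysosomes. Cd63 encodes a tetraspanin of late endosomes, lysosomes and exosomes. Spp1 encodes osteopontin, a secreted phosphoprotein that binds integrins and CD44. Clec7a encodes Dectin-1, a surface receptor that recognises beta-glucan and signals through the kinase Syk.

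Depth was similar in all libraries, with 14376582 to 16784638 counts assigned to genes, so that a level of 1 CPM (the count scaled to a fixed library total) rested on 14 to 17 counts. The 5 genes had between 4000 and 371158 counts per library, and counting error was small beside the differences between libraries. The labelled cell type could be checked on 2 of 9 myeloid markers. Csf1r, the receptor for the main microglial growth factor, had 2208 CPM or more in every library, and Cx3cr1, the fractalkine receptor, 278 CPM or more. Library S6 stood apart from the other libraries. It was the lowest library for 22.4% of the 12199 genes tested and the highest for 20.9%, where no other library was the lowest or the highest for more than 11.5%. The chi-square per gene was 31.9 to 62.4 for pairs of rhCDNF libraries with S6, 8.0 to 29.1 for their other pairs and 8.49 to 19.0 for saline pairs. The levels, differences and correlations of the 5 genes are therefore also given without S6.

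All 5 genes were abundant in these cells, Apoe, Spp1 and Gpnmb most of all. Together they took up 4.51% to 5.39% of all counts in the saline libraries (4.98% ± 0.333, SD, n = 5) and 2.55% to 4.39% in the rhCDNF libraries (3.89% ± 0.770, SD, n = 5). The summed share did not overlap between the groups: the highest rhCDNF library, S7, had 4.39% and the lowest saline library, S5, had 4.51%. Library S6 had 2.55%, and the next lowest, S9, had 3.93%. Without S6 the rhCDNF mean was 4.22% ± 0.217 (SD, n = 4). Shares are of counts and were not divided by transcript length, so they do not rank the genes by number of molecules. Apoe took up 2.15% ± 0.0721 of all counts in the saline group and 1.64% ± 0.336 in the rhCDNF group (SD, n = 5 each). It ranked from place 2 to 4 among all genes by count in all 10 libraries. Spp1 took up 1.95% ± 0.300 and 1.57% ± 0.392 (SD, n = 5 each) and ranked from place 2 to 5. Gpnmb took up 0.770% ± 0.0440 and 0.587% ± 0.108 (SD, n = 5 each), at places 9 to 12. Cd63 held places 99 to 124 in the saline libraries and 128 to 222 in the rhCDNF libraries, and Clec7a places 322 to 388 and 375 to 731.

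**Figure D1:**
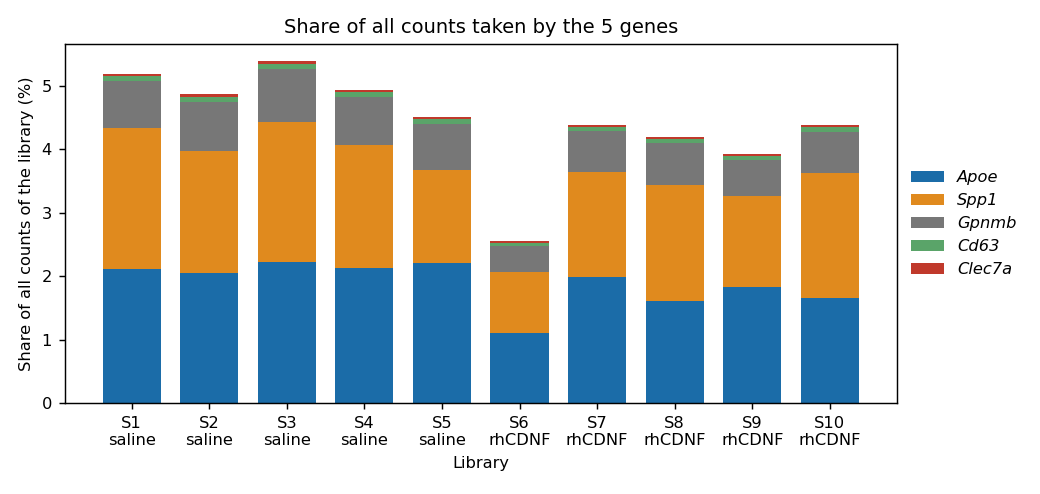
Stacked bars give the percentage of all counts of each library (y axis) that came from Apoe, Spp1, Gpnmb, Cd63 and Clec7a in each of the 10 libraries (x axis). The saline libraries S1 to S5 reach 4.51% or more and the rhCDNF libraries S6 to S10 4.39% or less, with S6 lowest at 2.55%.

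Whether treatment with rhCDNF altered these markers was the question behind the comparison of the groups. Counts were scaled by the trimmed mean of M values (TMM) and compared over all genes with edgeR's quasi-likelihood test, a difference being called at a Benjamini-Hochberg adjusted p under 0.05. The test called 0 genes lower (0% of the 12199 tested) and 0 genes higher (0%) in the rhCDNF group, so that none of the 5 genes passed it. At an unadjusted p under 0.05, 670 genes (5.49%) were lower and 841 (6.89%) higher, and 4 of the 5 genes were among those lower. With DESeq2 the calls were 2 higher and none lower, and with the likelihood ratio test of edgeR 3 higher and none lower. All 5 genes had a lower mean in the rhCDNF group, where 49.6% of all genes tested had a fitted log2 fold change below 0. In a bulk fraction, fewer cells of a type cannot be told apart from less RNA per cell.

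Apoe, the lipid carrier, had 20949, 20334, 22138, 21299 and 22615 CPM in saline libraries S1 to S5, and 10757, 19138, 16397, 19037 and 16761 CPM in rhCDNF libraries S6 to S10. Each rhCDNF library lay below every saline library, by a margin of 19138 against 20334 CPM. The mean was 21467 ± 915 CPM in the saline group and 16418 ± 3407 CPM in the rhCDNF group (SD, n = 5 each), 23.5% lower. On the log2 scale edgeR's quasi-likelihood fit put the difference at -0.39 (SE 0.14, unadjusted p = 0.0195, adjusted p = 0.371). A two-sided exact permutation test on the libraries gave p = 0.00794 for log2 CPM, the smallest value that this design allows. Since the study had already reported Apoe, Gpnmb and Cd63 as lower in these cells, their exact permutation p-values are a description. Without library S6 the rhCDNF mean was 17833 ± 1456 CPM (SD, n = 4), 16.9% lower than in the saline group, and the log2 fold change was -0.27.

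Gpnmb, the glycoprotein of loaded lysosomes, had 7361, 7660, 8367, 7601 and 7491 CPM in the saline libraries in the order S1 to S5. In S6 to S10 it had 3960, 6081, 6834, 5897 and 6658 CPM. As for Apoe, no rhCDNF library reached the lowest saline library. The means were 7696 ± 391.9 and 5886 ± 1145 CPM (SD, n = 5 each), a difference of 23.5%. The fitted log2 difference was -0.39 (SE 0.13, edgeR quasi-likelihood adjusted p = 0.370, exact permutation p = 0.00794). Without S6 the rhCDNF mean was 17.3% lower than the saline mean, at 6367 ± 449 CPM (SD, n = 4), and the log2 fold change was -0.27.

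Cd63, the endosomal tetraspanin, had the smallest p of the 5 genes and the narrowest spread. It stood at 744, 789, 789, 794 and 727 CPM in S1 to S5 and at 519, 694, 637, 637 and 683 CPM in S6 to S10. The means were 769 ± 30.9 and 634 ± 69.3 CPM (SD, n = 5 each), 17.5% lower with rhCDNF. The fitted log2 difference of -0.28 (SE 0.078) had an edgeR quasi-likelihood p of 0.00399 before adjustment, place 98 among the 12199 genes tested, and of 0.365 after it. After TMM scaling the groups did not overlap (at least 727 CPM in saline and at most 694 CPM in rhCDNF libraries). On library totals alone they did, since rhCDNF library S7 had 724 CPM and saline library S5 had 708 CPM, and the exact permutation p moved from 0.00794 to 0.0159. Without S6 the log2 fold change was -0.21, with 663 ± 30.2 CPM (SD, n = 4) in the rhCDNF group.

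Spp1, which encodes osteopontin, varied most within the groups. The saline libraries S1 to S5 had 21843, 19069, 21786, 19432 and 15099 CPM, and the rhCDNF libraries S6 to S10 had 9368, 15865, 18655, 14762 and 19814 CPM. Only S6 and S9 of the rhCDNF libraries lay below every saline library. Saline libraries S2, S4 and S5, of which S5 was lowest, sat within the rhCDNF range. The means were 19446 ± 2751 and 15693 ± 4082 CPM (SD, n = 5 each). The log2 fold change of -0.31 (SE 0.18) had an edgeR adjusted p of 0.496 and an exact permutation p of 0.127. Without S6 the log2 fold change was -0.17, smaller by more than 1.5 times, and the exact permutation p was 0.254. Without saline library S5 that p was 0.0476.

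Clec7a, the gene of Dectin-1, had 369, 379, 384, 364 and 415 CPM in S1 to S5 against 234, 307, 329, 381 and 357 CPM in S6 to S10. Library S9, at 381 CPM, lay above 3 of the saline libraries, and the other 4 rhCDNF libraries lay below all of them. The means were 382 ± 20.003 and 321 ± 56.5 CPM (SD, n = 5 each), and the fitted log2 difference was -0.25 (SE 0.11, edgeR adjusted p = 0.393, exact permutation p = 0.0397). Without S6 the log2 fold change was -0.16, also smaller by more than 1.5 times, and the exact permutation p was 0.0794.

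**Figure D2:**
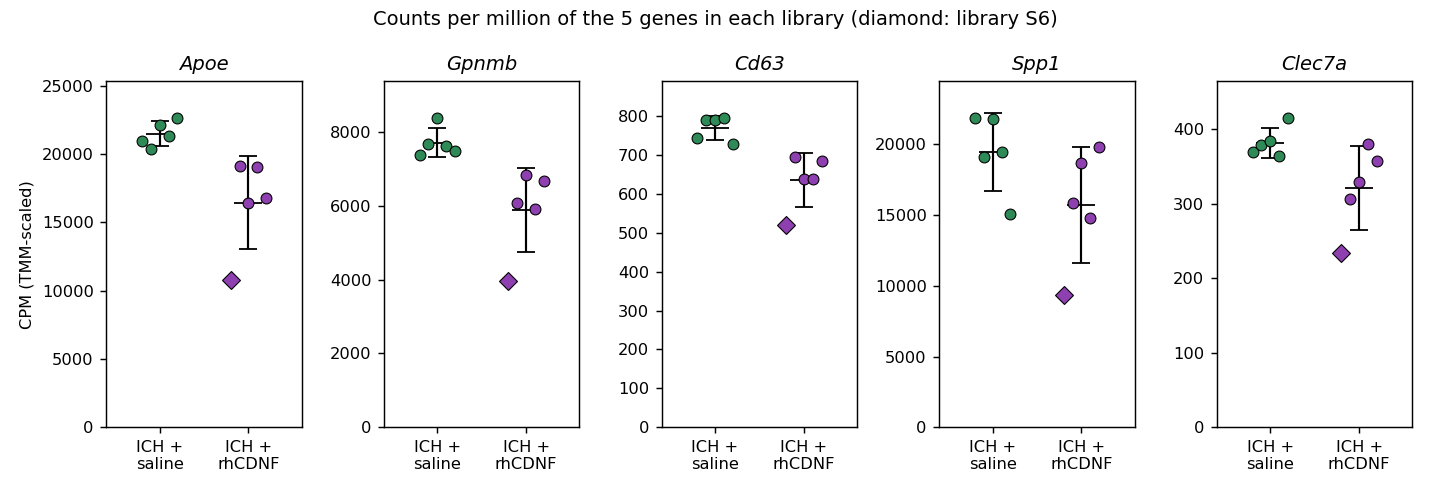
Each panel plots 1 gene, with CPM after TMM scaling on a linear y axis that starts at 0 and the 2 groups on the x axis; points are libraries, horizontal bars are means and whiskers are SDs (n = 5). Library S6, drawn as a diamond, is the lowest point in every panel, and Apoe, Gpnmb and Cd63 show no overlap between the groups, whereas Spp1 and Clec7a do.

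After TMM scaling, 3 of the 5 genes (2 on library totals) did not overlap between the groups and were lower in rhCDNF libraries, where 154 of the 12199 genes tested (1.26%) had that pattern. Among the 409 genes with a mean level at or above that of Clec7a, it held for 18, or 4.40%, and 37, or 9.05%, were lower at an unadjusted p under 0.05. Without S6 the pattern of no overlap held for 187 of the 12199 genes and again for 18 of the 409. S6 was the lowest library for 162 of these 409 genes, or 39.6%, as it was for all 5 members. A fold change at least as low as that of Cd63 was fitted for 486 genes, or 3.98%. The 409 abundant genes had a median log2 fold change of -0.0031. The members were chosen with these results known, so their counts and exact permutation p-values are a description.

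The spread was wider in the rhCDNF group. The coefficient of variation was 4.26% and 20.7% for Apoe, 5.09% and 19.5% for Gpnmb, 4.02% and 10.9% for Cd63, 14.1% and 26.0% for Spp1, and 5.23% and 17.6% for Clec7a (saline and rhCDNF group, n = 5 each). Much of that came with S6. Without it the rhCDNF values were 8.17%, 7.05%, 4.55%, 13.6% and 9.43% in the same order (n = 4). Relative to the saline mean, S6 held 50.1% of Apoe, 51.5% of Gpnmb, 48.2% of Spp1, 61.1% of Clec7a and 67.5% of Cd63. The other 4 rhCDNF libraries held 76.4% to 89.2% of Apoe, 76.6% to 88.8% of Gpnmb, 82.8% to 90.3% of Cd63, 75.9% to 102% of Spp1 and 80.2% to 99.6% of Clec7a.

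All 5 genes varied together across the 10 libraries, and this rested largely on S6. Pearson's r of log2 CPM was 0.71 to 0.94 over the 10 pairs of genes, with a median of 0.89. After each gene was centred on its group means, r was 0.60 to 0.89, with a median of 0.82. The closest pair was Gpnmb and Cd63 (r = 0.94, Spearman's rho = 0.85) and the least close Spp1 and Clec7a (r = 0.71, rho = 0.21). Without S6 the median was 0.57, with a range of -0.0028 to 0.83, and after centring on group means it was -0.082, with a range of -0.67 to 0.64. Gpnmb and Cd63 had r = 0.83 over the 9 libraries left, but 0.23 after centring on group means. Gpnmb and Spp1 kept 0.64 both before and after centring. The libraries share their depth and their scaling, which all pairs have in common.

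**Figure D3:**
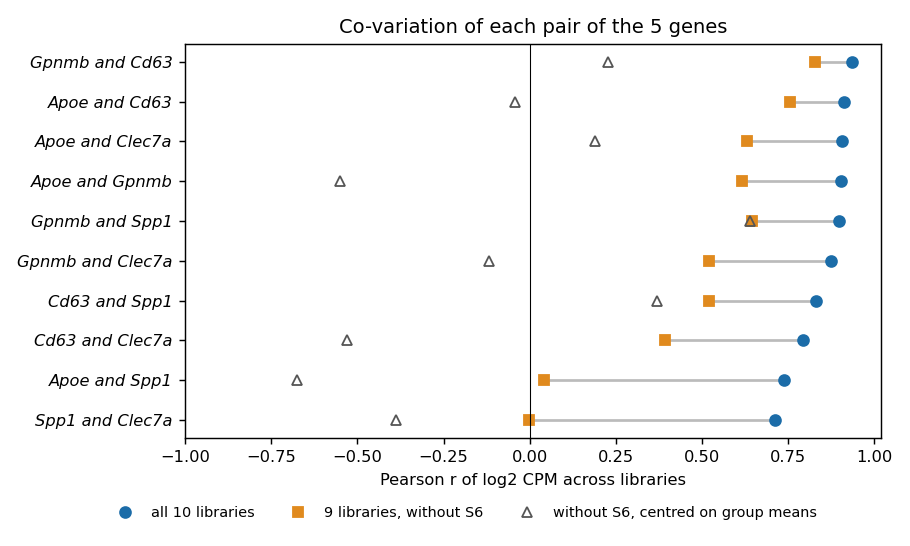
Pearson's r of log2 CPM (x axis) is shown for each of the 10 pairs of genes (y axis) over all 10 libraries (circles), over the 9 libraries without S6 (squares), and without S6 after centring on the group means (triangles). The circles lie between 0.71 and 0.94, while the squares reach down to -0.0028 and the triangles lie on both sides of 0.

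The proportions among the genes shifted little between the groups for some pairs and more for others. The ratio of Apoe to Gpnmb counts was 2.79 in the saline group and 2.78 in the rhCDNF group (geometric means), and it ranged from 2.40 in S8 to 3.23 in S9. Without S6 the rhCDNF value was 2.80. The ratio of Apoe to Spp1 counts was 1.11 and 1.06, with a wider range from 0.846 in S10 to 1.498 in S5. That of Cd63 to Clec7a was 2.01 and 1.99. Larger shifts were seen for Apoe to Cd63, at 27.9 and 25.5 (26.9 in the rhCDNF group without S6). Single libraries spread more widely, from 20.7 in S6 to 31.1 in S5. Apoe to Clec7a went from 56.1 in the saline to 50.7 in the rhCDNF group (52.0 without S6). Here too single libraries spread more widely, from 46.0 in S6 to 62.4 in S7. Cd63 held up better than the others in S6, where the ratio of Gpnmb to Cd63 was at its lowest, 7.63, against group values of 10.01 and 9.17 (9.60 in the rhCDNF group without S6). Such closeness was shared by many other genes. Of the 8235 other genes with a mean of at least 10 CPM, Gpnmb was in place 11 by its r with Cd63, and Cd63 in place 74 by its r with Gpnmb. Cd63, the member nearest to Apoe, was in place 71 for it, and Gpnmb, the member nearest to Spp1, in place 154.

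For the pair with the highest r over all 10 libraries, the bases upstream of the RefSeq start are shown. Both genes held the same motif letters there. The windows are on GRCr8, a later assembly than the Rnor_6.0 used for the counts, at chr4:79340878-79341127 (plus strand) for Gpnmb and chr7:1921894-1922143 (plus strand) for Cd63. Capitals mark every match, on either strand, to 6 motifs. That of AP-1 was searched as TGANTCA, the core of PU.1 as GAGGAA and the E-box as CACGTG. The GC box was searched as GGGCGG, the promoter element bound by TBP as TATAAA and that bound by NF-Y as CCAAT.
Gpnmb: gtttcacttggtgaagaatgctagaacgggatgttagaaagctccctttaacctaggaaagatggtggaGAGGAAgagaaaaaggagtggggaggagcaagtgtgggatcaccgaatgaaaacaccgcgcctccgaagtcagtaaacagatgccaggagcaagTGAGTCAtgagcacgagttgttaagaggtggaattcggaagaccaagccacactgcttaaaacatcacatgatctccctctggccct
Cd63: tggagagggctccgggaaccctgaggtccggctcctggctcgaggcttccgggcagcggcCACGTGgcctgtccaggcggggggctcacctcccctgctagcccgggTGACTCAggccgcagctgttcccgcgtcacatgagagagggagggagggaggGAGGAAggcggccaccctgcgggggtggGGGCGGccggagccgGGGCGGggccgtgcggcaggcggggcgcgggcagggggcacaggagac
TGANTCA was found at position -87 in Gpnmb and -143 in Cd63, counted from the start site, and 6.34% of the 33469 windows of 250 bases before rat RefSeq starts held it. GAGGAA was found at -181 in Gpnmb and -91 in Cd63, and 23.3% of windows held it. Cd63 also held CACGTG at -190 (5.59% of windows) and GGGCGG at -63 and -48 (30.5% of windows). No match overlapped another. Apoe has 3 starts in the table, and the window before the most upstream one held none of the 6 motifs. The overlapping windows before the other starts held GAGGAA, the GC box or the letters CCAAT (34.0% of windows). The window of Spp1 held TATAAA (12.9% of windows) at -204. That of Clec7a held none of the 6. These matches are letters in a sequence and not sites of binding, and no binding or chromatin was measured here.

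Other genes could be named only in part, since the count table gives identifiers without symbols. A symbol was attached where an identifier's values over the 10 libraries followed 1 gene of the study's supplementary table, whose levels served for names only. This named 789 genes, mostly those with small p-values in the study's own comparison, so the counts below do not represent their lists. Of the 778 named genes that were tested, 144 (18.5%) were lower and 284 (36.5%) higher at an unadjusted p under 0.05. Their median log2 fold change was 0.26, and the fitted value was below 0 for 287 of the 778. The named genes of a list are to be read against these shares and not against those of all genes. Of 28 further genes of the disease-associated microglia program, 8 were named, with lower means under rhCDNF for 6 and higher means for 2 (median log2 fold change -0.22, and -0.15 without S6). None passed edgeR's adjusted test, and 2 of the 8 were lower at an unadjusted p under 0.05, where 18.5% of named genes were. Lyz2, encoding lysozyme, had 2315 ± 359 CPM in the saline and 1922 ± 552 CPM in the rhCDNF group (SD, n = 5 each). Lgals3, encoding galectin-3, a lectin recruited to damaged lysosomes, had 1781 ± 118 and 1455 ± 304 CPM (SD, n = 5 each). Fabp5, a fatty acid binding protein, had 500.5 ± 29.7 and 394 ± 97.9 CPM (SD, n = 5 each), and Hif1a, the hypoxia-inducible transcription factor subunit, had 419 ± 49.9 and 356 ± 44.9 CPM (SD, n = 5 each). The r with the mean pattern of the 5 genes over 10 libraries was 0.95 for Lgals3 and Fabp5 (0.74 and 0.76 without S6), 0.75 for Hif1a (0.39 without S6) and 0.69 for Lyz2 (0.30 without S6). The other members with lower means, Ccl6 and Igf1, had 0.69 and 0.67 (0.26 and 0.51 without S6). The pair on the other side, named after their values were seen, were Axl, a receptor tyrosine kinase for dying cells, and Ch25h, which makes 25-hydroxycholesterol. Axl had 480 CPM in S6 and 134 to 213 CPM in the other 9 libraries, and Ch25h 177 CPM in S6. Without S6 their log2 fold changes went from 0.50 to 0.065 for Axl and from 0.66 to 0.26 for Ch25h. So library S6 was lowest for the 5 genes and for the 6 named members with lower means. Of the 8 named members, only Axl and Ch25h were high there.

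Of 22 genes of lysosomes and lipid handling, 2 were named, and both had a lower mean in the rhCDNF group. The fitted log2 fold change was below 0 for 287 of the 778 named genes. At an unadjusted p under 0.05, 1 of the 2 was lower, where 18.5% of named genes were. Nceh1, a cholesterol ester hydrolase, had 132 ± 8.22 CPM and 112 ± 12.3 CPM (SD, n = 5 each), a fitted log2 difference of -0.25 (SE 0.078, edgeR adjusted p = 0.365). Its r with the mean pattern of the 5 genes was 0.95 over 10 libraries and 0.92 over 9, without S6. The value over 9 libraries was not centred on group means. It therefore includes the lower level with rhCDNF that Nceh1 shares with the 5 genes, and is a description. Msr1, a scavenger receptor, had 306 ± 33.3 and 255 ± 52.2 CPM (SD, n = 5 each). No partner of Apoe, Spp1, Gpnmb, Clec7a or Cd63 from the lists of receptors and signalling proteins was among the genes named.

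Among the genes whose pattern was most like the mean of the 5, the 4 with a symbol in the first 10 were Mfsd1, a lysosomal membrane transporter (r = 0.98), RGD1304884 (0.97), Mgst1, a microsomal glutathione transferase (0.97), and RGD1559482 (0.97). Mfsd1 had 308 ± 14.8 CPM in the saline and 243 ± 37.5 CPM in the rhCDNF group (SD, n = 5 each), a fitted log2 difference of -0.34 (SE 0.0996, edgeR adjusted p = 0.365). All 5 rhCDNF libraries had less Mfsd1 than any saline library, at 272 CPM or below against 291 CPM or above. Since Mfsd1 was picked for its likeness to a pattern in which the rhCDNF libraries lie below the saline libraries, its difference between the groups follows from that choice and is a description. With values centred on group means, the named genes among the first 10 were Ginm1, RGD1304884 and Ano6, a phospholipid scramblase, with r between 0.96 and 0.97. The most opposed named genes were Tagln, an actin-binding protein (r = -0.98), Plekha5 (-0.97), Gbp4, an interferon-induced guanylate-binding protein (-0.96), Haus8 (-0.95) and Tent5a (-0.95). Tagln had 8.06 ± 0.427 and 12.2 ± 3.70 CPM (SD, n = 5 each). Across the 8231 genes compared with the pattern, 178 had an r over 0.9 with all libraries and 28 without S6.

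**Figure D4:**
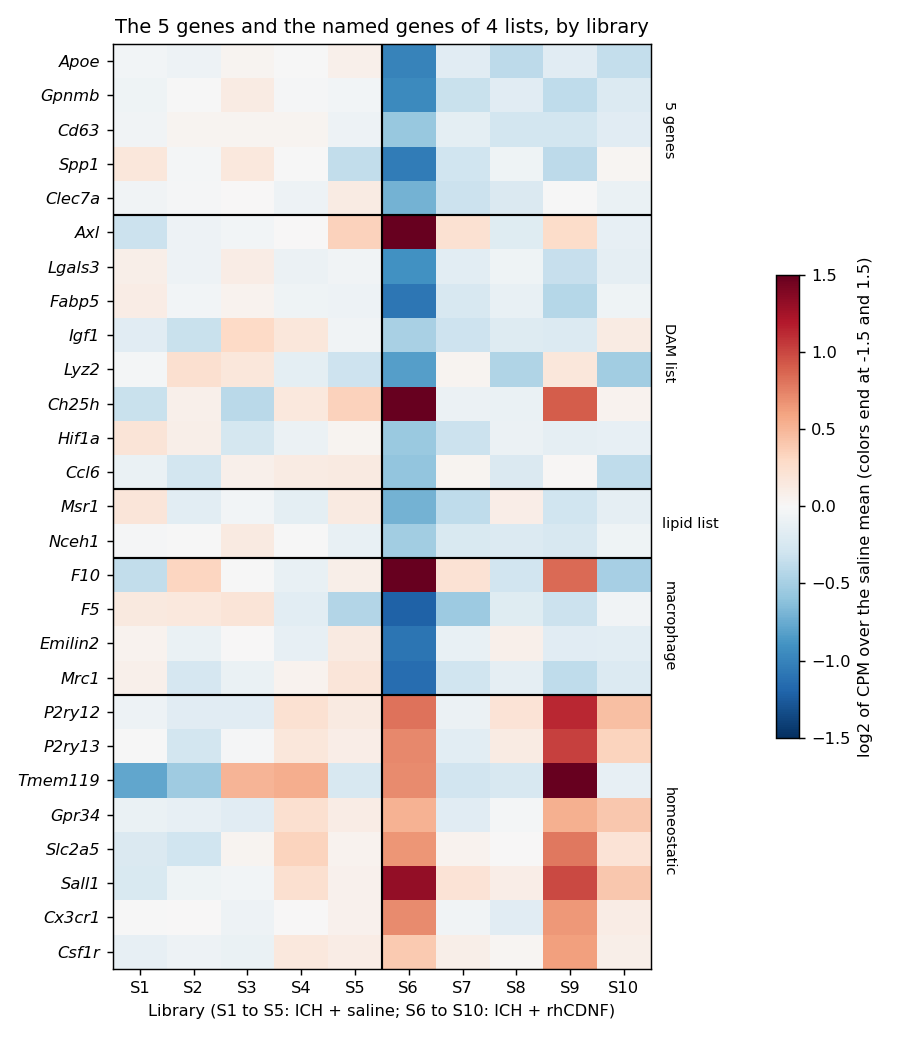
Color gives the log2 ratio of a gene's CPM to its mean over the saline libraries (the color no longer changes beyond the ends of the scale) for the 5 genes and the named genes of 4 lists (rows) in libraries S1 to S10 (columns). The column of S6 is blue for the 5 genes and red for Axl, Ch25h, F10 and the resting-state genes, while S9 is also red for the resting-state genes and is pale to light blue for the 5 genes.

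Markers of the cell types in the fraction also differed between libraries. Of 12 genes of resting microglia, 8 were named, and the mean of each was higher with rhCDNF, for 4 of them at an unadjusted p under 0.05 and 0 at an adjusted p under 0.05 by edgeR's quasi-likelihood test (median log2 fold change 0.42). Of the named genes, 36.5% were higher at that unadjusted p and 63.1% had a fitted fold change above 0. Without S6, 2 of the 8 were higher at an unadjusted p under 0.05 and the median was 0.35. The log2 fold change of Cx3cr1 was 0.30 with and 0.17 without S6, and without S9 that of Csf1r went from 0.26 to 0.16. Csf1r had 2410 ± 226 and 2886 ± 531 CPM, Cx3cr1 313 ± 10.5 and 385 ± 110 CPM, Sall1, a transcription factor of microglial identity, 208 ± 25.3 and 334 ± 128 CPM, and P2ry12, a purinergic receptor, 137 ± 17.7 and 204 ± 68.9 CPM (saline and rhCDNF group, SD, n = 5 each). Sall1 and Cx3cr1 were highest in S6, at 520 and 513 CPM, where the 5 genes were lowest, but the other 6 were highest in S9. The 5 genes were mixed in S9: Gpnmb and Spp1 had their lowest value after S6 there, Apoe lay close to the highest rhCDNF library and Clec7a was the highest of the rhCDNF libraries. The r of Sall1 with the mean pattern of the 5 genes was -0.84, and -0.61 without S6.

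Of 7 genes of monocytes and macrophages, 4 were named. Mrc1, the mannose receptor, had 327 ± 36.6 CPM in the saline and 249 ± 59.3 CPM in the rhCDNF group (SD, n = 5 each), and was lowest in S6 at 148 CPM (r with the 5 genes = 0.92, 0.62 without S6). F5 and Emilin2 were also lowest in S6, at 80.7 and 131 CPM, while F10 was highest there, at 39.6 CPM. On library totals, the summed level of these 4 was 767 to 862 CPM in the saline and 410 to 751 CPM in the rhCDNF libraries. That of the 6 named genes of the resting microglia marker list was 624 to 851 and 717 to 1350 CPM. Markers of other tissue cells were low, again on library totals. Slc1a2 and Gfap of astrocytes together had 16.3 to 38.9 and 15.97 to 47.4 CPM, and Vwf of endothelial cells 21.9 to 60.2 and 31.6 to 78.1 CPM. Hba-a1 and Hbb of red cells together had 10.02 to 28.4 CPM in saline and 16.05 to 1037 CPM in rhCDNF libraries, on library totals. They were highest in S8, where Gpnmb was the highest of the rhCDNF libraries and Apoe the lowest after S6. Only genes above 0 in every library could be named, and markers of neutrophils, T cells and neurons were not analysed here. The part of these marker levels in the levels of the 5 genes was not tested.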

How the data were processed

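The deposited values are raw counts per Ensembl gene, 1 column per library; the authors trimmed single-end reads of directional, ribosome-depleted libraries, aligned them to Rnor_6.0 and counted them with featureCounts. The submitters' processing notes list Trimmomatic 0.36, STAR 2.5.3a and Subread 1.6.4, and the paper's methods another STAR release. The strand setting is not given in the sources used here. Columns carry a library number and an index. The group of each was read from headings in a supplementary table of the paper, and no column could be tied to 1 labelled sample.

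The tests were run with edgeR 4.0.16 under R 4.3.3 (filter by expression, TMM, quasi-likelihood test, no covariate, Benjamini-Hochberg adjustment over 12199 genes), and with DESeq2 1.42.0 as an alternative. CPM values carry the TMM factors unless said to be on library totals, and log2 CPM a prior count of 2. Exact permutation tests compared mean log2 CPM over the libraries. Without 1 library the smallest two-sided p was 0.0159. The fits were tested on simulated data.

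Symbols were tied to identifiers where the SD over libraries of the log2 ratio between the supplementary table's level and the CPM was the best on both sides and the next best at least 1.5 times as large. The table used held 1998 rows, and 0 identifiers matched the reference gene table. The members, lists and rules were chosen with earlier results of these data known. Named genes were the members, the 10 genes most like and most unlike their mean pattern (and most like after centring) with a mean of at least 10 CPM, and up to 4 genes of each list by level. The shares among named genes, and the list, overlap, summed share and ratio values without S6, were added after the data were seen. The authors' own fold changes and p-values were not used. No 2 libraries of the same group agreed within sampling noise (chi-square per gene of 8.0 or more). Pairs across the groups were not compared.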

Additional observations from a re-analysis of the deposited data

Results flagged for a closer look

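In 9 of 68 groups of 5 libraries examined (34 genes, each in both groups), 1 library lay far from the others by Dixon's criterion, which chance meets in about 1 in 20 groups. All 9 were rhCDNF library S6, and none of the 5 genes themselves was among them. Apart from Axl, these genes were picked for their likeness, positive or negative, to a pattern in which S6 is the lowest library.

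Mfsd1 was at 179 CPM in S6 and at 246 to 272 CPM in the other rhCDNF libraries. Mgst1 was at 58.4 CPM against 104 to 118 CPM, and RGD1304884 at 69.4 CPM against 105 to 118 CPM. On the high side, Axl was at 480 CPM in S6 against 148 to 203 CPM, Tent5a at 72.6 CPM against 39.6 to 48.6 CPM and Plekha5 at 74.9 CPM against 47.1 to 54.8 CPM. Gbp4 was at 29.5 CPM against 9.02 to 12.999 CPM, Haus8 at 19.1 CPM against 11.5 to 13.1 CPM and Tagln at 18.8 CPM against 10.1 to 11.3 CPM.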

How the results depend on the processing

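The log2 fold changes of the 5 genes stayed below 0, and none passed the adjusted threshold, under DESeq2, without a filter on low counts, without TMM factors, with library totals that leave out the 5 genes, with edgeR's likelihood ratio test, and without each library in turn. Across the settings that keep all libraries, the values ranged from -0.39 to -0.25 with adjusted p-values of 0.132 to 0.608. Without 1 library they ranged from -0.45 to -0.27 for Apoe, -0.44 to -0.27 for Gpnmb, -0.31 to -0.21 for Cd63, -0.40 to -0.17 for Spp1 and -0.32 to -0.16 for Clec7a, in each case nearest 0 without S6. The differences in mean log2 CPM without 1 library ranged from -0.44 to -0.17 for Spp1, whose exact permutation p was 0.0476 to 0.254, and from -0.33 to -0.16 for Clec7a, at 0.0159 to 0.0794. Those of Apoe, Gpnmb and Cd63 stayed at 0.0159. The genes called higher numbered 2 with DESeq2 and 3 with the likelihood ratio test instead of 0, and the cause was not tested. At an unadjusted p, genes lower numbered 442 without S3 and genes higher 539 without S1, 559 without S3 and 519 without S6, against 670 and 841. The median r over pairs of the 5 genes was 0.57 without S6. Of 29 other named genes, none passed the threshold in any setting and all kept their direction, but 21 moved by over 1.5 times without 1 library, 17 of them without S6, 5 without S9 and Igf1 without S3. Axl went from 0.50 to 0.065 without S6 and Tmem119 from 0.54 to 0.081 without S9. No paired analysis was possible because the columns carry no replicate number of the labels.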
